A study of Mus musculus with 8 samples.

Results

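The genes described here are 10 bile transporter genes of the hepatocyte, the liver cell that makes bile: Abcb11, Abcb4, Abcc2, Atp8b1, Abcg5, Abcg8, Slc10a1, Slco1b2, Slco2b1 and Abcc3. They were taken by gene symbol from the 17810 genes of the deposited count table, and all 10 had enough reads to be tested, with 708 to 59225 counts in any liver. RNA-Seq was performed on the livers of 4 WT and 4 HKO mice. Male littermates of both genotypes were fed a CD-HFD, a choline-deficient, high-fat diet that induces fatty liver, for 3 months from 8 weeks of age, and were 5 months old at collection. HKO mice carry floxed miR-33 alleles and Cre recombinase under the albumin promoter, so the deletion is directed at hepatocytes. Whether it also reaches bile duct cells cannot be read from whole livers, and miR-33 itself was not among the values used here. All 8 mice received the CD-HFD, so no value here describes a healthy liver. The question was how loss of hepatocyte miR-33 changes gene expression in the fatty liver, here for the genes that move bile salts, phospholipid, sterols and conjugates in and out of the hepatocyte.

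A hepatocyte faces the blood with its sinusoidal, or basolateral, membrane and the bile canaliculus with its apical membrane. Bile salts are taken up from the blood by carriers of the SLC10 and SLCO families, and ATP-driven pumps of the ABC family export them into bile together with phosphatidylcholine and cholesterol, which form mixed micelles that protect the bile duct from bile salts. Loss of ABCB11, ABCB4 or ATP8B1 function in humans causes inherited cholestasis, and ABC pumps of the basolateral membrane can return bile salts and conjugates to the blood when bile flow fails.

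miR-33 represses messages that pair with its seed, bases 2 to 8 of the mature microRNA. The mature sequence in RefSeq (GRCm38, chr15:82198127-82198147, plus strand) is shown with the seed in capitals. Below it is the only seed match in a transporter 3'UTR that is printed here, with the 7 letters counted as the match in capitals.
mmu-miR-33-5p: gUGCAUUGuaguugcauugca
Slco1b2 3'UTR: tgtaaagactgAATGCAAtgaatgaagtt
A match was counted where a 3'UTR held the 7 letters CAATGCA or AATGCAA. The former pairs with bases 2 to 8, and the latter with bases 2 to 7, followed by an A opposite base 1. The longest annotated 3'UTR (GENCODE M21) held a match in 2 of the 10 genes, beside 16.8% of the 15653 genes of the table with an annotated 3'UTR. Atp8b1 had 2 matches in 2373 bases, and the first of them, at base 2207, was extended to 8 bases. Slco1b2 had 1 match, AATGCAA, at base 198 of 1040 (chr6:141685804-141685810, plus strand), where base 8 of the seed is not paired. Abcb11, Abcb4, Abcc2, Abcg5, Abcg8, Slc10a1, Slco2b1 and Abcc3 had 0 matches in any annotated mouse 3'UTR. Their longest 3'UTRs ranged from 51 bases in Abcb4 to 3183 bases in Abcc2.

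Promoter windows of 300 bases, from 250 before the start of transcription to 50 after it, were found in the RefSeq table (GRCm38) for 8 of the 10 genes, and the other two were Atp8b1 and Abcc3. They were searched on both strands, with up to 2 mismatches, for AGGTCA and TGACCT spaced by 1 base, the inverted repeat that FXR, the bile acid receptor, is known to bind, and for a pair of AGGTCA spaced by 4 bases, the repeat that LXR, the oxysterol receptor, is known to bind. Overlapping matches of the motifs were allowed. The inverted repeat was found in Abcb11 and Slco1b2 and in 1.14% of all 32851 windows, and the direct repeat in none of the 8 genes and in 3.02% of all windows. The 3 matches are shown in capitals on the strand of the gene, since they are the letters that set these windows apart from those of the other transporters.
Abcb11, match 94 bases before the start (chr2:69342690-69342718, minus strand): ttcctctcATGTCACTGAACTgtgctaga
Abcb11, match 63 bases before the start (chr2:69342659-69342687, minus strand): tggactttAGGCCATTGACCTataagcaa
Slco1b2, match 88 bases before the start (chr6:141629422-141629450, plus strand): atttgtgtAGGACAGTGACCTgaagagat
The first Abcb11 match had 2 mismatches and the other 2 matches had 1 each. Binding was not measured.

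Expression was compared between genes as CPM (counts scaled by TMM to a common library total) per kb of the longest annotated transcript. The uptake carriers Slco1b2 and Slc10a1 were the most abundant of the 10 genes. Slco1b2, an organic anion carrier, stood at 888 ± 74.9 CPM per kb (SD, n = 4 livers) in WT livers, and Slc10a1, the sodium-dependent bile salt carrier NTCP, at 435 ± 58.98. Abcb11, the bile salt export pump, and Abcb4, the phosphatidylcholine floppase, followed at 102 ± 14.6 and 97.7 ± 11.6 CPM per kb, and their WT ranges overlapped on this scale, from 92.1 to 123 and from 88.2 to 113. Their near-equal levels rest on the choice of length, since per kb of all annotated exons the WT means were 99.3 for Abcb11 and 42.5 for Abcb4. Abcc2, the canalicular pump of bilirubin glucuronides and other conjugates, was at 54.2 ± 5.34, Abcc3 at 43.7 ± 4.48, Slco2b1 at 34.4 ± 1.38, Abcg5 at 26.7 ± 0.952 and Abcg8 at 23.3 ± 0.694 CPM per kb. Atp8b1, a phospholipid flippase of the canalicular membrane, was the lowest of the 10 with 9.12 ± 0.845 CPM per kb. No other pair of neighbours in the WT order overlapped.

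In HKO livers the first 5 genes kept these ranks. Per kb of the longest transcript, Abcb11 ranged from 115 to 164 CPM and Abcb4 from 57.04 to 73.3 CPM in HKO livers, without overlap. Per kb of all annotated exons the HKO means were 132 for Abcb11 and 29.2 for Abcb4. Abcc3 went from rank 6 in WT to rank 9 in HKO livers, at 26.2 ± 6.74 CPM per kb (SD, n = 4). Its HKO range, from 16.4 to 31.6, overlapped those of Abcg8, Abcg5 and Slco2b1. With the summed length of all annotated exons in place of the longest transcript, only Abcb4 and Abcc2 exchanged places in the WT order.

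**Figure D1:**
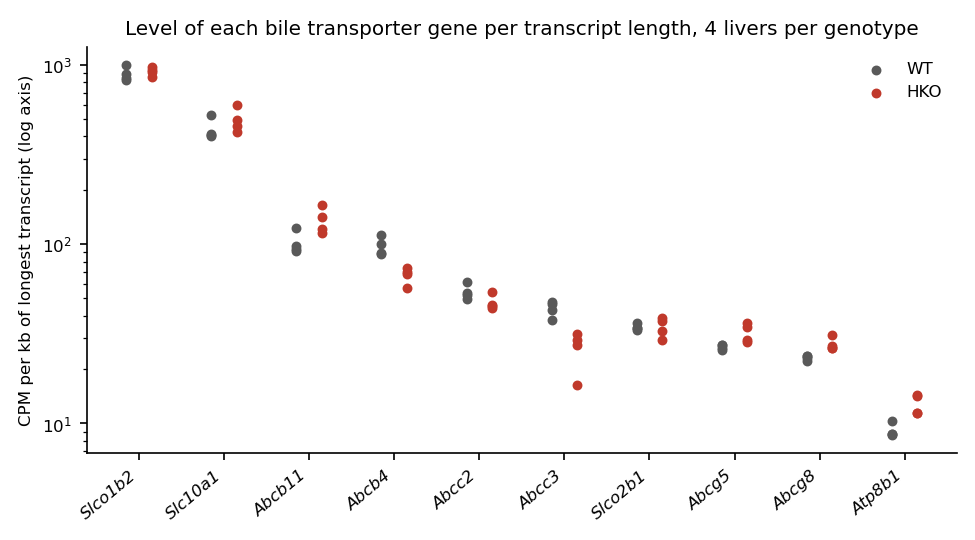
CPM per kb of the longest annotated transcript, on a log axis, for the 10 bile transporter genes in order of their WT mean; each point is 1 liver, with 4 WT livers in grey and 4 HKO livers in red. Levels ran from 9.12 CPM per kb for Atp8b1 to 888 for Slco1b2 in the WT mean, and on this length Abcb11 and Abcb4 overlapped in WT but not in HKO livers, while per kb of all annotated exons their WT means were 99.3 and 42.5.

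The genotypes were then compared gene by gene with the quasi-likelihood test of edgeR, adjusted by Benjamini-Hochberg over the 12395 genes tested, and a gene was called at an adjusted p under 0.05. Of the 10 transporter genes, Atp8b1 was called higher and Abcb4 lower in HKO livers. Over all genes tested 1.66% were called higher and 3.37% lower. The ranges of the genotypes were apart in 5 of the 10 genes, Abcb4, Atp8b1, Abcg5, Abcg8 and Abcc3, beside 12.6% of all genes tested. The log2 fold change was above 0 in 7 genes and below it in 3, and under total count scaling in 5 and 5. The median log2 fold change of the 10 genes was 0.11, beside 0.0090 over all genes tested, which total count scaling in place of TMM shifted to -0.080. Whole livers were sequenced, so fewer hepatocytes and less of a message per hepatocyte cannot be told apart.

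**Figure D2:**
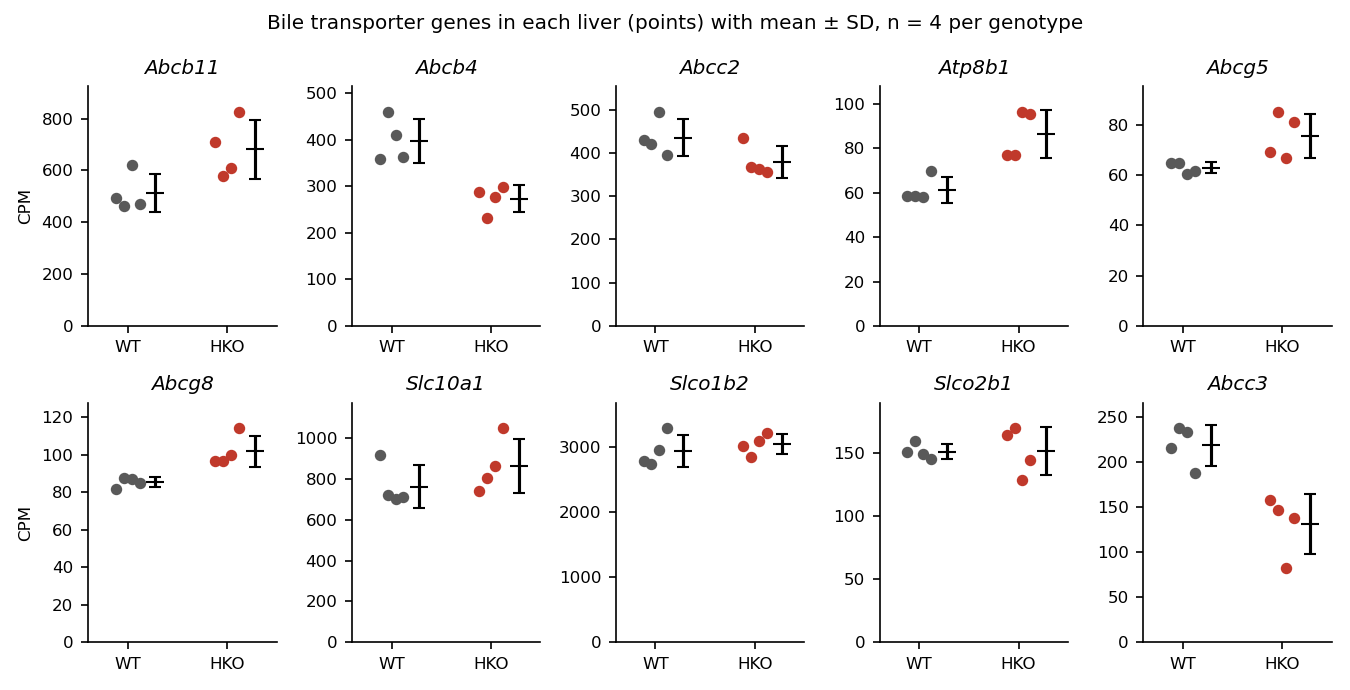
CPM of each bile transporter gene in each liver, with WT in grey and HKO in red; bars beside the points are the mean ± SD of 4 livers and every axis starts at 0. All 4 HKO livers lie below all 4 WT livers for Abcb4 and Abcc3 and above them for Atp8b1, Abcg5 and Abcg8.

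Of the canalicular exporters, Abcb4 (chromosome 5, 8893721 to 8959226) moves phosphatidylcholine to the outer leaflet of the canalicular membrane. It was at 359.7, 461, 410.4 and 364 CPM in WT replicates 1 to 4 and at 287, 233, 277 and 299 CPM in HKO replicates 1 to 4. Every HKO liver was below every WT liver. The mean was 1.46-fold lower, at 399 ± 47.3 CPM (SD, n = 4) in WT against 274 ± 28.9 CPM (SD, n = 4) in HKO livers, with a log2 fold change of -0.54 (standard error 0.11, 95% interval -0.77 to -0.31, adjusted p = 0.0154 from edgeR). Leaving out 1 liver at a time kept the call in 7 of 8 fits, and it was lost without WT replicate 2, the highest liver (log2 fold change -0.46, adjusted p = 0.0632 from edgeR).

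Abcb11 (chromosome 2, 69238282 to 69342616), the pump that drives bile salts into the canaliculus, had CPM values of 492, 463, 619 and 471 in WT livers. In HKO livers they were 711, 577, 609 and 826 CPM. Of the WT livers replicate 3 alone lay within the HKO range, above HKO replicates 2 and 3. The 95% interval of its log2 fold change, 0.41, ran from 0.13 to 0.70, and the adjusted p was 0.099 from edgeR and 0.0321 from DESeq2. Without WT replicate 3 the log2 fold change was 0.52 and edgeR called the gene (adjusted p = 0.0453). The ratio of Abcb4 to Abcb11 in CPM was 0.791 ± 0.144 (SD, n = 4) in WT against 0.406 ± 0.0379 (SD, n = 4) in HKO livers. This ratio was chosen after its values were seen and was not tested.

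Atp8b1 (chromosome 18, 64528979 to 64661000) keeps the phospholipid asymmetry of the canalicular membrane. Of the WT livers 3 lay between 58.2 and 58.6 CPM and replicate 4 at 69.8 CPM. The HKO livers were at 76.9, 77.2, 96.6 and 95.4 CPM, all above the WT livers, and formed a lower pair, replicates 1 and 2, and a higher pair, replicates 3 and 4. The 95% interval of the log2 fold change of 0.50 was 0.27 to 0.72 (adjusted p = 0.0196 from edgeR). The adjusted p was 0.0674 without WT replicate 1, 0.078 without WT replicate 2 and 0.0581 without HKO replicate 4, with log2 fold changes between 0.45 and 0.48 in these edgeR fits.

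Abcc2 (chromosome 19, 43782308 to 43838218) was at 429, 419.7, 495 and 395 CPM in WT and at 436, 367, 362 and 355 CPM in HKO livers. HKO replicate 1 lay within the WT range and the other 3 HKO livers below it. The log2 fold change was -0.20 with a 95% interval from -0.41 to 0.02 (adjusted p = 0.301 from edgeR).

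ABCG5 and ABCG8 form a heterodimer that secretes cholesterol and plant sterols into bile, and a single subunit does not reach the canalicular membrane. The genes lie head to head on chromosome 17, with their nearest starts of transcription 110 bases apart. Another annotated start of Abcg8, at 84676302, lies within the listed gene of Abcg5. The stretch between the nearest starts is shown because the promoter windows of both starts hold it (chr17:84683011-84683121, plus strand, GRCm38).
Abcg5 start to Abcg8 start: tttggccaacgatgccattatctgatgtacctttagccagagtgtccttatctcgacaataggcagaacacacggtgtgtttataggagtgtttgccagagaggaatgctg
The listed gene of Abcg8 (84676302 to 84700333) overlapped that of Abcg5 (84658174 to 84683011) by 6710 bases on the opposite strand. The annotated exons shared 82 bases, and reads there cannot be told apart without strand, which the sources used here do not state for the counting.

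Abcg5 was at 64.8, 64.6, 60.3 and 61.6 CPM in WT and at 69.0, 85.2, 66.9 and 80.9 CPM in HKO livers. Abcg8 was at 81.9, 87.7, 86.8 and 85.05 CPM in WT and at 96.6, 96.7, 99.8 and 114 CPM in HKO livers. For both genes all HKO livers exceeded all WT livers, and the WT livers lay close together, with SDs of 2.24 and 2.54 CPM beside 8.91 and 8.38 CPM in HKO livers. The 95% intervals of the log2 fold changes, 0.26 for Abcg5 and 0.25 for Abcg8, were 0.07 to 0.46 and 0.09 to 0.42. Neither gene was called, at adjusted p = 0.127 and 0.0878 from edgeR. DESeq2 gave 0.0943 for Abcg5 and 0.0366 for Abcg8. The ratio of Abcg8 to Abcg5 in CPM was 1.36 ± 0.073 (SD, n = 4) in WT against 1.36 ± 0.155 (SD, n = 4) in HKO livers. It was lowest in HKO replicate 2, at 1.14, where Abcg5 was highest.

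Of the 3 sinusoidal uptake carriers 0 were called by edgeR, by DESeq2 or by limma-voom, and 0 had an unadjusted p under 0.05 from edgeR. Slc10a1 (chromosome 12, 80953185 to 80968705) was at 916, 718, 700.2 and 712 CPM in WT and at 741, 801, 863 and 1046 CPM in HKO livers. WT replicate 1 lay above 3 of the HKO livers and the other 3 WT livers below all of them. The log2 fold change was 0.18 (95% interval -0.09 to 0.45, adjusted p = 0.474 from edgeR), and without WT replicate 1 it was 0.28 and still not called.

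Slco1b2 (chromosome 6, 141629518 to 141686646), the mouse liver carrier for unconjugated bile salts, bilirubin conjugates and drugs, ranged from 2736 to 3281 CPM in WT and from 2843 to 3200.4 CPM in HKO livers. The HKO range lay within the WT range. Its log2 fold change of 0.048 had a 95% interval from -0.16 to 0.26 (adjusted p = 0.846 from edgeR) and turned to -0.041 under total count scaling. Slco2b1 (chromosome 7, 99657804 to 99711340), a carrier of steroid sulfates and other organic anions, was at 151 ± 6.04 CPM (SD, n = 4) in WT against 151 ± 18.8 CPM (SD, n = 4) in HKO livers. The fitted difference was 0.0068 on the log2 scale (95% interval -0.20 to 0.21, adjusted p = 0.981 from edgeR), a value whose sign changed in 6 of 17 alternatives. For both carriers the interval left room for a change of about 0.2 on the log2 scale in either direction.

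Abcc3 (chromosome 11, 94343295 to 94392990), also known as MRP3, pumps glucuronides and bile salts from the hepatocyte back into the blood. It was at 216, 237, 233 and 188 CPM in WT and at 158, 147, 82.3 and 138 CPM in HKO livers. Every HKO liver was below every WT liver, and HKO replicate 3 stood below the other HKO livers. The mean was 218 ± 22.4 CPM (SD, n = 4) in WT against 131.3 ± 33.7 CPM (SD, n = 4) in HKO livers. This was the largest difference of the 10 genes in size, with a log2 fold change of -0.73 (standard error 0.18, 95% interval -1.15 to -0.32), and the adjusted p was 0.0541 from edgeR and 0.00124 from DESeq2. Without HKO replicate 3 the log2 fold change was -0.56, and edgeR called the gene lower (adjusted p = 0.0135).

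**Figure D3:**
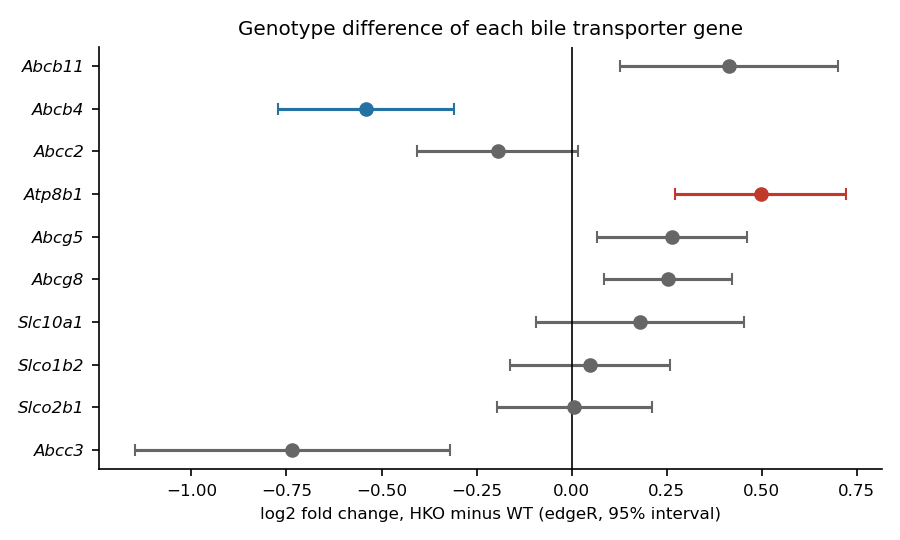
Log2 fold change of each bile transporter gene, HKO minus WT, from edgeR with its 95% interval; red marks the gene called higher, blue the gene called lower and grey the genes not called. The intervals of 6 genes exclude 0, and those of Abcc2, Slc10a1, Slco1b2 and Slco2b1 include it.

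Summed over the 10 genes, CPM was 5620 ± 177 (SD, n = 4) in WT against 5778 ± 378 (SD, n = 4) in HKO livers, a difference of means within the SD of the HKO livers, and Slco1b2 made up most of this sum. Within a genotype some of the genes varied together and others in opposite directions. Over the 8 livers, and as deviations of log2 CPM from the genotype mean, Pearson's r was 0.89 between Slco2b1 and Abcc3, 0.80 between Atp8b1 and Slco1b2 and -0.84 between Atp8b1 and Slco2b1. For Abcg5 and Abcg8, which share a promoter region, it was 0.24, and Abcg8 ranked 3991 among the other 12394 genes in likeness to Abcg5. The genes most like each transporter by this measure were Hcls1 for Abcb4 (r = 0.99), Tspan9 for Abcb11 (r = 0.98), Nox4 for Atp8b1 (r = 0.97), Tln1 for Abcc2 (r = 0.99), Gemin4 for Abcg5 (r = 0.98), Srprb for Abcg8 (r = 0.97), Nudcd3 for Slc10a1 (r = 0.99), Sart1 for Slco1b2 (r = 0.96), Cyp2c69 for Slco2b1 (r = 0.98) and Sin3a for Abcc3 (r = 0.98). With 8 livers and 12394 candidates such values are a description, and the genes share their libraries.

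Reads that match several genes were split between them in the deposited counts. The value was fractional in all 8 livers for Abcb11, Slc10a1 and Abcc3, in 7 for Abcb4, in 5 for Abcg8 and Slco2b1 and in 0 for Abcc2, Atp8b1, Abcg5 and Slco1b2, so the levels of the former rest in part on this assignment. The totals of 12174339 to 18735785 counts per liver put 3 counts, the smallest level taken as detected, at 0.149 to 0.255 CPM, far below every transporter gene. The last number in the column headers was lower for every HKO library than for every WT library. What it numbers is not given in the sources used here, and it cannot be told apart from the genotype.

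To place the 10 genes among their neighbours, 4 lists of related genes were examined: other basolateral transporters, other canalicular transporters, transcription factors of transporter genes and proteins of canalicular sorting and scaffold. They held 69 genes, of which 65 were tested, and 3 were called higher and 2 lower in HKO livers. Over all genes tested these shares were 1.66% and 3.37%. The ranges of the genotypes were apart in 14 of the 65, beside 12.6% of all genes tested. Among the other basolateral transporters 1 of the 9 tested was called. It was Abca1, the cholesterol exporter that loads apolipoprotein A-I, which was higher in HKO livers with a log2 fold change of 0.47 (edgeR, adjusted p = 0.0175).

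Slco1a1, a sinusoidal organic anion carrier, and Aqp8, a water channel of the canalicular membrane, showed the largest differences of these lists in size and were singled out after their values were seen. Slco1a1 was at 419, 119, 194 and 431 CPM in WT and at 1173, 815, 977 and 1006 CPM in HKO livers, all above the WT livers. The log2 difference was 1.77 (95% interval 0.75 to 2.79), but the WT livers differed widely and the adjusted p was 0.0719 from edgeR and 0.000525 from DESeq2. Slco1a1 has close paralogs, and its value was fractional in 5 livers. Aqp8 was at 174, 108.3, 74.3 and 70.3 CPM in WT and at 28.6, 49.9, 21.2 and 48.9 CPM in HKO livers, all below the WT livers, at a log2 difference of -1.52 (adjusted p = 0.0973 from edgeR and 0.00898 from DESeq2).

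Of the 9 other canalicular transporters tested 2 had an unadjusted p under 0.05 from edgeR, and the share of all genes tested under this limit was not counted. Of these 9 genes edgeR called 0, DESeq2 1 and limma-voom 0. Among the most abundant was Tmem30a, the subunit that ATP8B1 needs to leave the endoplasmic reticulum, with a log2 fold change of 0.15 (edgeR, adjusted p = 0.466). The 95% interval of Tmem30a ran from -0.08 to 0.38.

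Of the 20 transcription factors, Hnf4a and Nr5a2 were called higher and Ppara and Nfe2l2 lower in HKO livers. Hnf4a, the hepatocyte nuclear factor, was at 441, 438, 471 and 435 CPM in WT and at 633, 559.7, 499 and 594 CPM in HKO livers (log2 fold change 0.36, adjusted p = 0.0406 from edgeR). Nr5a2, or LRH-1, a receptor of bile acid and cholesterol genes, differed by 0.37 on the log2 scale (edgeR, adjusted p = 0.0368). Ppara, the fatty acid receptor that is known to act on Abcb4, lay between 661 and 682 CPM in WT and between 492 and 564 CPM in HKO livers, a log2 difference of -0.33 (edgeR, adjusted p = 0.0358). Nfe2l2, or NRF2, which is known to act on Abcc3, differed by -0.34 on the log2 scale (edgeR, adjusted p = 0.0334). Whether these factors act on the transporter genes in these livers was not tested. With 1 liver left out at a time, Hnf4a, Ppara and Nfe2l2 kept the call in 1 and Nr5a2 in 2 of 8 fits. The receptors whose motifs were searched above were not called. FXR, encoded by Nr1h4, was at 172 ± 13.7 CPM (SD, n = 4) in WT against 177 ± 17.2 CPM (SD, n = 4) in HKO livers, with a log2 difference of 0.043 (95% interval -0.15 to 0.24). LXR alpha, encoded by Nr1h3, had a log2 difference of 0.077 (95% interval -0.10 to 0.26).

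Of the 27 genes of canalicular sorting and scaffold 9 had an unadjusted p under 0.05 from edgeR. The share of all genes tested under this limit was not counted, so the 9 are not read as a trait of the list. Of these 27 genes edgeR called 0, DESeq2 2 and limma-voom 0. The most abundant were Rdx, or radixin, which anchors ABCC2 at the canaliculus, at 414 ± 45.9 CPM (SD, n = 4) in WT against 469 ± 67.1 CPM (SD, n = 4) in HKO livers, and Ceacam1, a canalicular adhesion protein, at 242 ± 26.4 and 290.2 ± 32.5 CPM. The lowest adjusted p of this list, looked up after the fit, was that of Myo5b, the myosin that carries ABC transporters to the canaliculus, with a log2 fold change of -0.35 (edgeR, adjusted p = 0.0621) and no overlap.

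**Figure D4:**
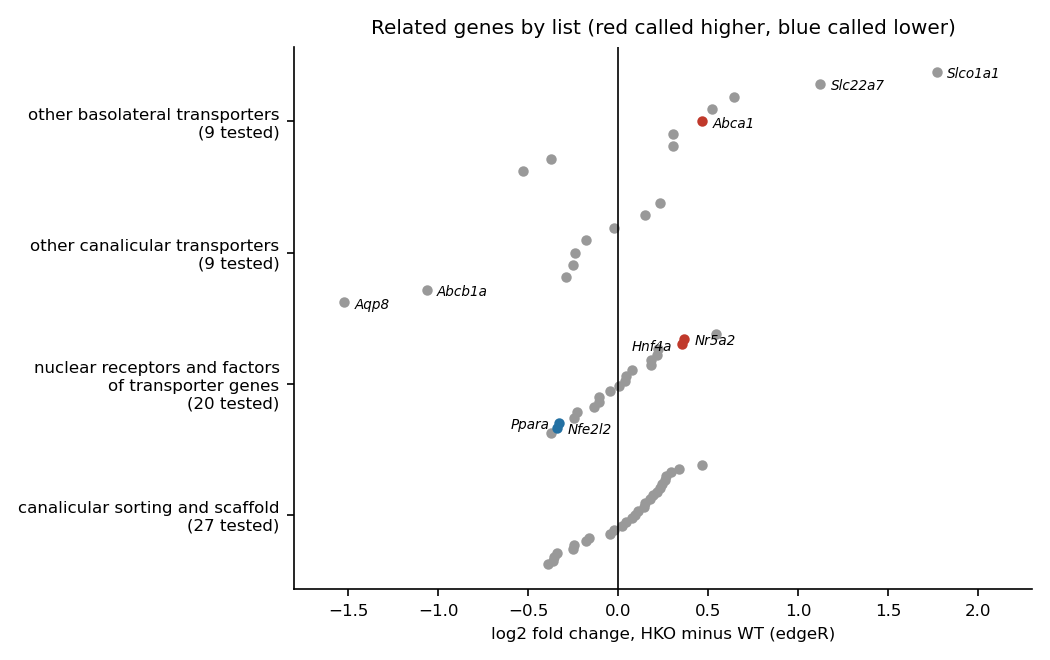
Log2 fold change, HKO minus WT, of 65 related genes in 4 lists; each point is 1 gene, red called higher and blue called lower by edgeR, and genes are named where called or past 1 on the log2 scale in either direction. Slco1a1 at 1.77 and Aqp8 at -1.52 are farthest from 0 and were not called.

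The cell types of the samples were checked with marker lists. Alb lay between 47064 and 98815 CPM in all livers. Of 11 hepatocyte markers tested 5 were called higher in HKO livers and 0 lower, beside 1.66% and 3.37% of all genes tested. Apart from Hnf4a, the called markers were Cps1 and Ass1 of the urea cycle, Tat, a tyrosine-degrading enzyme, and Serpina1c, a secreted protease inhibitor. Their log2 fold changes were 1.26, 0.80, 0.87 and 0.90 (adjusted p = 0.00433, 0.028, 0.0165 and 0.0219 from edgeR). With 1 liver left out at a time, Cps1 kept the call in 8 of 8 fits and Tat in 7. Serpina1c kept it in 3, Ass1 in 2 and Hnf4a in 1, and the genotype ranges of Ass1 overlapped. The summed level of the hepatocyte list was 93602 to 124926 CPM in WT and 85431 to 139507 CPM in HKO livers. Of the 10 Kupffer cell and macrophage markers and the 10 sinusoidal endothelial markers, 0 were called by edgeR, DESeq2 or limma-voom and 0 had an unadjusted p under 0.05 from edgeR. Their summed levels were 109 to 283 and 97.1 to 296 CPM in WT and 83.3 to 262 and 148 to 328 CPM in HKO livers. Clec4f and Cd5l, the most abundant of the macrophage list, had log2 fold changes of 0.20 and -0.031, and Kdr and Fcgr2b, those of the endothelial list, of 0.69 and 0.54. In the endothelial list 9 of the 10 log2 fold changes were above 0, with a median of 0.48, beside 0.0090 over all genes tested. In the macrophage list 4 of the 10 were above 0, with a median of -0.020. As sets the lists were not tested. Of the 10 stellate cell markers Col1a1 and Col3a1 were called lower, beside 3.37% of all genes tested. The log2 fold changes of Col1a1 and Col3a1 were -2.81 and -1.87 (adjusted p = 0.00723 and 0.0137 from edgeR). In the stellate list 4 of the 10 log2 fold changes were above 0 and 6 below it, with a median of -0.060. This list was not tested as a set either. The stellate list summed to 463 to 598 CPM in WT and 371 to 529 CPM in HKO livers. The part of these markers in the transporter differences was not tested.

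HKO replicate 2 stood apart in cholangiocyte markers, the genes of bile duct cells. Krt19 was at 16.9 CPM there and at 0.169 to 1.07 CPM in the other 7 livers, and Epcam at 16.5 CPM and at 0.329 to 1.02 CPM. Of the 12 markers of the list 9 were highest in this liver. The list summed to 114 to 152 CPM in WT and 87.8 to 217 CPM in HKO livers, most of it from Slc10a2 and Spp1, and of its 5 tested genes 0 were called by edgeR, DESeq2 or limma-voom and 0 had an unadjusted p under 0.05 from edgeR. Without HKO replicate 2 the calls among the transporters were again Atp8b1 (log2 fold change 0.55, adjusted p = 0.022 from edgeR) and Abcb4 (log2 fold change -0.47, adjusted p = 0.0373 from edgeR). Abcc3, which bile duct cells also express, had a log2 fold change of -0.79 without this liver (adjusted p = 0.0753 from edgeR).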

How the data were processed

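RNA-Seq libraries were made from 8 mouse livers, and the labels gave the genotype and replicate number of each. Per the labels, Partek and STAR were used, and both an rRNA depletion and a small RNA kit are named, which leaves the library type open. The authors deposited estimated counts per gene from Partek's expectation-maximization quantification, without normalization. They were rounded to whole numbers for the tests, while the printed CPM were computed from the unrounded values. Coordinates are on GRCm38, where the start or the end matched RefSeq in 10 of the 10 genes. The stop was taken as given 1 base past the gene, since after this correction both ends matched RefSeq in 5 of the 10 genes.

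Genes passing edgeR's expression filter (minimum count 10) were tested with edgeR 4.0.16 in R 4.3.3 (TMM, robust quasi-likelihood). CPM uses TMM-scaled totals. Log2 CPM adds a prior count of 2. DESeq2 1.42.0 and limma-voom (limma 3.58.1) were run as alternatives, and so were upper quartile, RLE and total count scaling, other filters, legacy quasi-likelihood, the replicate number as a block, each liver left out and a fold change above 1.5. Counts were also simulated for 12395 genes, with 200 changed and the same dispersion given to every gene. There edgeR recovered 99.0% of changes of 2 and 83.5% of changes of 1 on the log2 scale, and 7.14% of its calls were false. Recovery of changes under 1, the size of every transporter difference, was not tested. Nor was recovery in genes that vary more between livers than this dispersion allows. In the livers, Slco1a1 at a log2 difference of 1.77 and Aqp8 at -1.52 were not called by edgeR. The transporter genes and lists were chosen with earlier results of these data known. Of each list the called genes were named, or else the 2 of highest mean CPM, and for each transporter the gene most like it of the 3 ranked. Replicates are mice, and intervals and floors cover the spread of these livers or counting error only. Some genes of the lists are not reported here by name. Protein sequences were not used here.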

Additional observations from a re-analysis of the deposited data

Results flagged for a closer look

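In groups of 4 livers, a liver was taken to stand apart where its gap to the nearest of the others was a large share of the whole range of the group by Dixon's 95% limit. Of 78 groups examined, 10 had such a liver, where chance gives about 1 in 20. Among the transporters these were Atp8b1 in WT (0.961 of the range), with WT replicate 4 at 69.8 CPM above 58.2 to 58.6 CPM, Slc10a1 in WT (0.918), with WT replicate 1 at 916 CPM above 700.2 to 718 CPM, and Abcc2 in HKO (0.849), with HKO replicate 1 at 436 CPM above 355 to 367 CPM. Among the transcription factors, WT replicate 3 was highest for Hnf4a (0.832) and Nr5a2 (0.846), and HKO replicate 2 for Nr1h3 (0.905). Among the cell markers, WT replicate 3 was highest for Fcgr2b (0.983), and HKO replicate 2 was lowest for Clec4f (0.875) and highest for Krt19 (0.986) and Epcam (0.964).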

How the results depend on the processing

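Of the 170 log2 fold changes of single transporters under the alternatives, 153 kept their direction and their side of the threshold, 5 lost a call, 5 gained one and 7 reversed. The reversed values were -0.041 for Slco1b2 under total count scaling and, for Slco2b1, -0.00047 with limma-voom, -0.078 under total count scaling, -0.00095 with the replicate block, -0.012 without WT replicate 4, -0.033 without HKO replicate 1 and -0.050 without HKO replicate 2. Over all 8 fits with a liver omitted, the value for Slco2b1 ran from -0.050 to 0.080. DESeq2 called 3 transporters higher and 2 lower, and 4 related genes higher and 6 lower. A fold change above 1.5 as an added condition left 0 transporters and 0 related genes in either direction. Leaving out each liver in turn gave 0 to 2 transporters higher and 0 to 2 lower, 0 to 4 related genes higher and 0 to 2 lower. Over all genes, 206 were called higher and 418 lower by edgeR, and 383 higher and 606 lower with DESeq2. Under total count scaling 119 were called higher and 621 lower, and with the fold condition 107 and 260. Fits without a liver called 61 to 230 higher and 151 to 368 lower. Total count scaling called 1 related gene higher and 6 lower. The causes were not tested. How the replicate numbers were assigned is not given in the sources used here. Correlations of the deviations of same-numbered livers ran from -0.15 to 0.01, which cannot decide whether the numbers pair the mice. With the replicate block, 1 transporter was called higher and 0 lower (Abcb4 had an edgeR adjusted p of 0.0604), and 2 related genes higher and 0 lower. The count of transporters with a seed match was 2 with any annotated 3'UTR as well.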
